A study of Mus musculus with 7 samples.

Results

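Gfi1 and Gfi1b are the genes of a pair of closely related transcriptional repressors. The account covers the chromatin states inside each gene and in the 100 kb beyond each of its ends, 2 genes of the 21631 protein-coding genes measured in the same way on chromosomes 1 to 19 and X. The genes were taken by name, with earlier results of these data known. On mm10 (GRCm38), Gfi1 (gene ID 14581) lies at chr5:107716655-107725805 on the minus strand, with annotated starts at 107725805 and, 1.46 kb into the gene, at 107724343. Gfi1b (gene ID 14582) lies at chr2:28609450-28621982, also on the minus strand, with 1 annotated start at 28621982. The windows measured were 209.4 kb (1047 bins of 200 bp) for Gfi1 and 212.6 kb (1063 bins) for Gfi1b. Upstream therefore means higher coordinates at both genes, and distances are counted from the outermost annotated start.

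The cells were BALB/c mouse bone marrow leukaemia cells in which mutant CSF3R and CEBPA had been introduced by retrovirus, in culture, and both groups carried both mutant genes. One group received DMSO, the solvent, and the other received 4 nM GSK-LSD1, an inhibitor of the lysine demethylase LSD1 (gene Kdm1a), for 48 h. Each group had 1 library for each of 3 histone marks (H3K4me1, H3K4me3 and H3K27Ac), 6 immunoprecipitated libraries in all, and there was 1 input library whose treatment the labels do not give. The labels do not say how many animals, transductions or cultures the cells came from.

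GFI1 and GFI1B are zinc finger proteins that carry a short SNAG domain at the N-terminus. This domain recruits LSD1 and the CoREST complex, and LSD1 removes methyl groups from H3K4me1 and H3K4me2 at the sites that the proteins bind. GFI1 is needed for granulocyte formation and GFI1B for the erythroid and megakaryocyte lineages. Both proteins are known to bind their own and each other's promoters, and both genes are controlled in blood cells by enhancers well outside the promoter, for Gfi1 chiefly upstream and for Gfi1b downstream. H3K4me1 marks enhancers and the flanks of active promoters, H3K4me3 marks active promoters, and H3K27Ac marks active elements of both kinds.

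Each treatment was summarised by the authors as 1 map in which every 200 bp bin carries 1 of 6 states, E1 to E6. States are described by where they lie, their marks being not given in the sources used here. E3 was the background, 73.3% of the genome in DMSO and 70.1% in GSK-LSD1, and E2 was a broad state at 21.3% and 19.3%. E5 and E6 were the states of annotated starts: in DMSO their shares at starts were 25.1 and 21.2 times their genome shares, and in GSK-LSD1 16.6 and 14.9 times. E4 covered 2.76% and 2.24%, and its share at starts was 2.27 and 1.87 times that. Over the whole genome E1 went from 0.483% in DMSO to 4.72% in GSK-LSD1, and E6 from 0.217% to 2.08%, while E5 went from 1.98% to 1.53%. The same number may stand for other marks in the other map. With 1 map per treatment there was no replicate, so no difference below was tested, and the intervals given cover the counting of bins only. They treat bins as independent, which bins of 1 segment are not, so their width understates the uncertainty. The 1047 bins of the Gfi1 window lay in 26 segments in DMSO and 43 in GSK-LSD1.

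The 250 bases before the outermost start of each gene are shown because both starts lay in E5 in DMSO and in E6 in GSK-LSD1, and because the GFI proteins are known to bind these promoters. The sequences are from RefSeq on GRCm38.p6, minus strand, 5′ to 3′, at chr5:107725806-107726055 for Gfi1 and chr2:28621983-28622232 for Gfi1b. Capitals mark the GFI core AATC or its reverse complement GATT.

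Gfi1 start 1: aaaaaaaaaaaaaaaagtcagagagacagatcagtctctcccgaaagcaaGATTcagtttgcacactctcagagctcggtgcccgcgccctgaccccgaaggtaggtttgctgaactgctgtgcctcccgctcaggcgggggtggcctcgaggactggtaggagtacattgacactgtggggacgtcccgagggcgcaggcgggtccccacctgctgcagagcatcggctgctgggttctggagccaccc

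Gfi1b start 1: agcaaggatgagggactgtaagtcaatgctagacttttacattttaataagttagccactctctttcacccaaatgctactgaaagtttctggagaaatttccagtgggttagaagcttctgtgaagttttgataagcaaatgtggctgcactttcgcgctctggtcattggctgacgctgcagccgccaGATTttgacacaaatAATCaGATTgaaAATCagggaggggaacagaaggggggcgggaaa

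The Gfi1b promoter held 4 GFI cores, all between 60 and 33 bases before the start, and 10.1% of the 32851 promoters in the table held at least as many. The Gfi1 promoter held 1 core, 200 bases before the start, and 73.1% of promoters held at least 1. No core was found before the second Gfi1 start. The Gfi1 promoter had 59.2% G or C bases and the Gfi1b promoter 44.4%. In the table's 300 base window, which runs 50 bases past the start, the ETS core GGAA was found 3 times at Gfi1b, once at the outermost Gfi1 start and 5 times at the second Gfi1 start, on either strand, and 96.0% of promoters hold it. The longer GFI site AAATCAC (3.20% of promoters), the GATA site AGATAA (11.2%), the RUNX site TGTGGT (16.8%), the CEBP sites TTGCGCAA (0.183%) and TTGCGTAA (0.167%) and the E-box CAGCTG (16.3%) had no match at any of the 3 starts. Each site was searched only in the letters given. The Gfi1b sequence above also holds TGATAA, which differs from the GATA site searched in its first letter and was not counted. These matches describe letters in these windows and were not read as binding.

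All 3 annotated starts, both of Gfi1 and the 1 of Gfi1b, were in E5 in DMSO and in E6 in GSK-LSD1. That switch was common: of 8906 protein-coding genes with a start in E5 in DMSO, 4597 (51.6%) had a start that went from E5 to E6, so the state of the starts did not set these genes apart. The block of E5 or E6 around the starts was longer in GSK-LSD1 than in DMSO. At Gfi1 the 4.2 kb E5 block over the starts (chr5:107722801-107727000) lay inside an 8.2 kb block of E6 with some E5 in GSK-LSD1 (chr5:107721801-107730000). At Gfi1b a 5.6 kb E5 block (chr2:28617001-28622600) lay inside an 11.8 kb E6 block (chr2:28611801-28623600). Within the gene bodies E5 or E6 covered 3.2 kb of the 9.4 kb of bins over Gfi1 in DMSO against 8.8 kb in GSK-LSD1. Over Gfi1b it covered 5 kb of 12.6 kb and then 12 kb. Nearly the whole body of both genes was thus in a state of the kind found at starts after the inhibitor. These block lengths and body shares were not ranked among all genes. The unbroken stretch of E4, E5 or E6 over the gene in GSK-LSD1 was. It was 13.2 kb at Gfi1, reached by 14.3% of genes, and 11.8 kb at Gfi1b, reached by 18.2%.

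**Figure D1:**
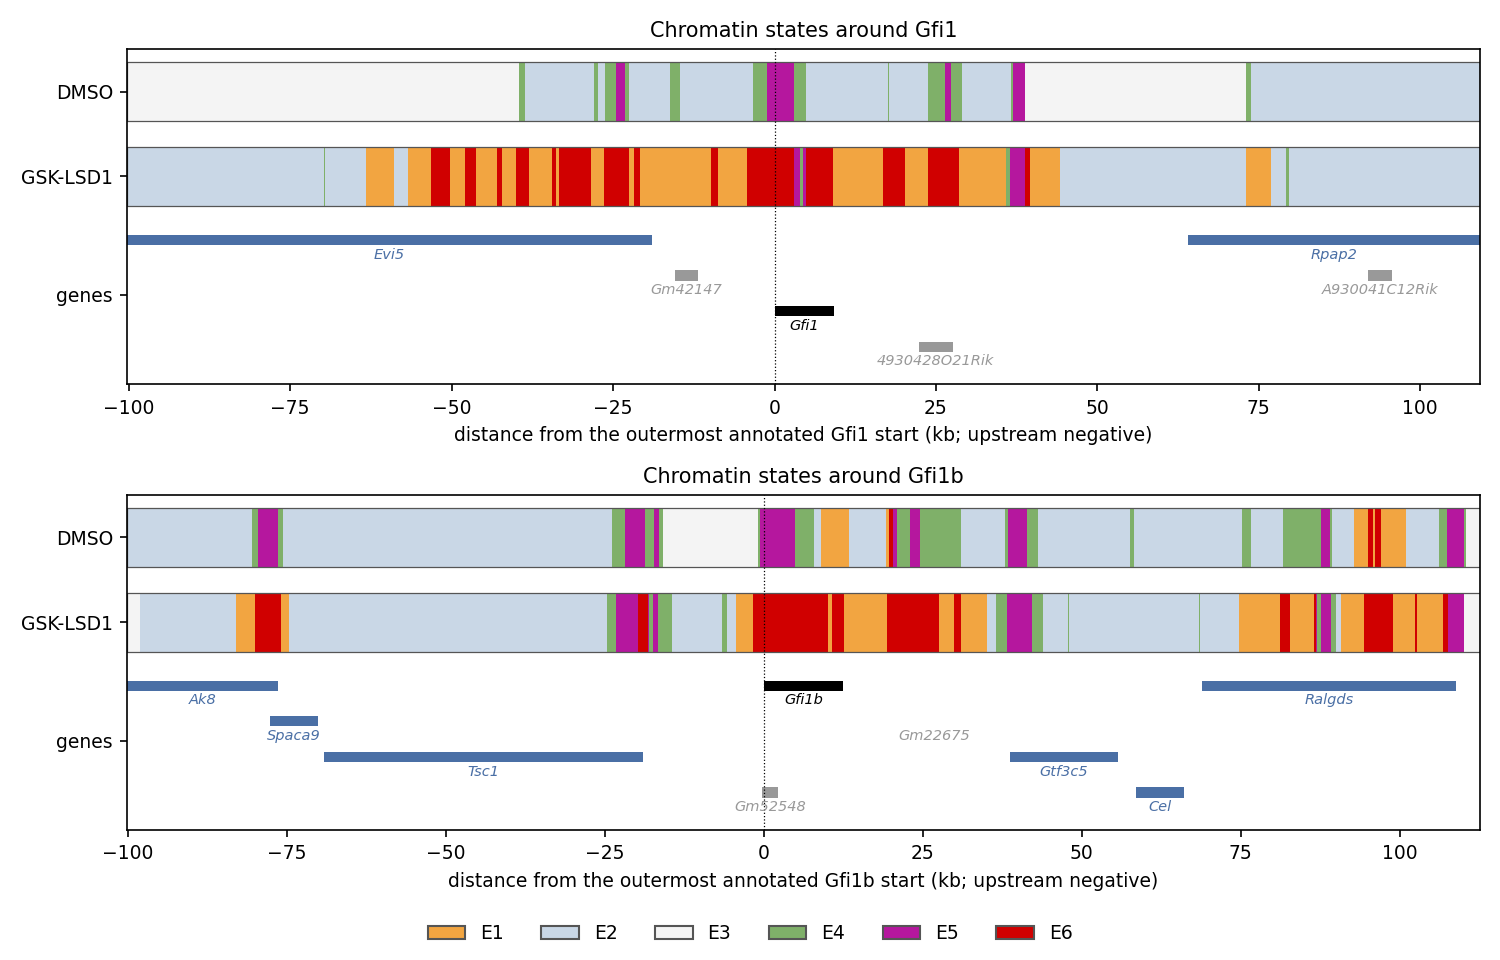
Chromatin states in 200 bp bins around Gfi1 and Gfi1b in DMSO and GSK-LSD1, against distance in kb from the outermost annotated start (upstream negative, dotted line at the start); bars below are annotated genes, black for the gene itself, blue for other protein-coding genes and grey for non-coding genes. Around Gfi1 the DMSO map has 4 E5 regions and no E1 or E6, and the GSK-LSD1 map has an unbroken 101 kb stretch of E1, E4, E5 and E6; around Gfi1b most E5 or E6 regions are present in both maps and are longer in GSK-LSD1.

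In the Gfi1 window E5 or E6 covered 8.4 kb in DMSO, all of it E5, and 43.2 kb in GSK-LSD1, of which 39.4 kb was E6 and 3.8 kb E5. As a share of bins this was 4.01% (95% Wilson interval 2.98 to 5.38) against 20.6% (18.3 to 23.2), a 5.14-fold larger area. In the Gfi1b window E5 or E6 covered 24.2 kb in DMSO against 49 kb in GSK-LSD1, 11.4% (9.61 to 13.4) against 23.0% (20.6 to 25.7), or 2.02-fold. The area at least doubled at 2466 of 21631 protein-coding genes (11.4%), and Gfi1b lay just past that limit. Its ratio was 1.90 with segments of 1 or 2 bins merged and 1.79 with each GSK-LSD1 run shortened by 1 bin at both ends, both under the limit. Read by single number the directions differed: E5 alone was smaller in GSK-LSD1 at both genes, 8.4 against 3.8 kb at Gfi1 and 22 against 12.8 kb at Gfi1b, and E6 carried the larger area, 0 against 39.4 kb and 2.2 against 36.2 kb.

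The 34.8 kb difference in E5 or E6 at Gfi1 was equalled or exceeded at 267 genes (1.23%), and the 24.8 kb difference at Gfi1b at 1183 genes (5.47%), where the median over all genes was 5.4 kb. Within 50 kb of the gene ends the difference at Gfi1 was 31.8 kb, and only 56 genes (0.259%) had as much, so most of the added area lay close to the gene. At Gfi1b the difference within 50 kb was 17.4 kb, with 847 genes (3.92%) at or above it. Their starting points were unlike. In DMSO Gfi1 was near the middle of all genes, with 56.6% holding at least its 8.4 kb (median 10.4 kb), and Gfi1b was among the higher ones, with 19.9% holding at least its 24.2 kb. In GSK-LSD1 the shares of genes at or above them, 15.8% for Gfi1 and 11.7% for Gfi1b, lay closer together.

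E1 covered none of the Gfi1 window in DMSO (0 of 1047 bins, and 3 bins would be 0.287%) and 64.8 kb in GSK-LSD1, 30.9% of bins (28.2 to 33.8). At Gfi1b it covered 11.6 kb (5.46%) in DMSO and 42.2 kb (19.8%, 17.6 to 22.4) in GSK-LSD1. A difference of at least 20 kb was seen at 7037 genes (32.5%), so the presence of added E1 was ordinary in these maps. The amount at Gfi1 was reached by 904 genes (4.18%) and that at Gfi1b by 4459 (20.6%), against a median of 8.4 kb.

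E1, E4, E5 and E6 together, every state other than the background E3 and the broad E2, covered 23.4 kb at Gfi1 in DMSO against 109.6 kb in GSK-LSD1, 4.68-fold more. At Gfi1b they covered 65.2 and 101.4 kb, 1.56-fold more. Doubling of this area was found at 4942 genes (22.8%), Gfi1 among them and Gfi1b not. E4 was smaller in GSK-LSD1 at both genes, at 15 and then 1.6 kb around Gfi1 and at 29.4 and then 10.2 kb around Gfi1b. The 2 windows, far apart in DMSO, were therefore close in this summed area in GSK-LSD1, with about 100 kb of these states in each. The parts of the sum still differed there, with 64.8 kb of E1 and 3.8 kb of E5 at Gfi1, against 42.2 and 12.8 kb at Gfi1b.

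**Figure D2:**
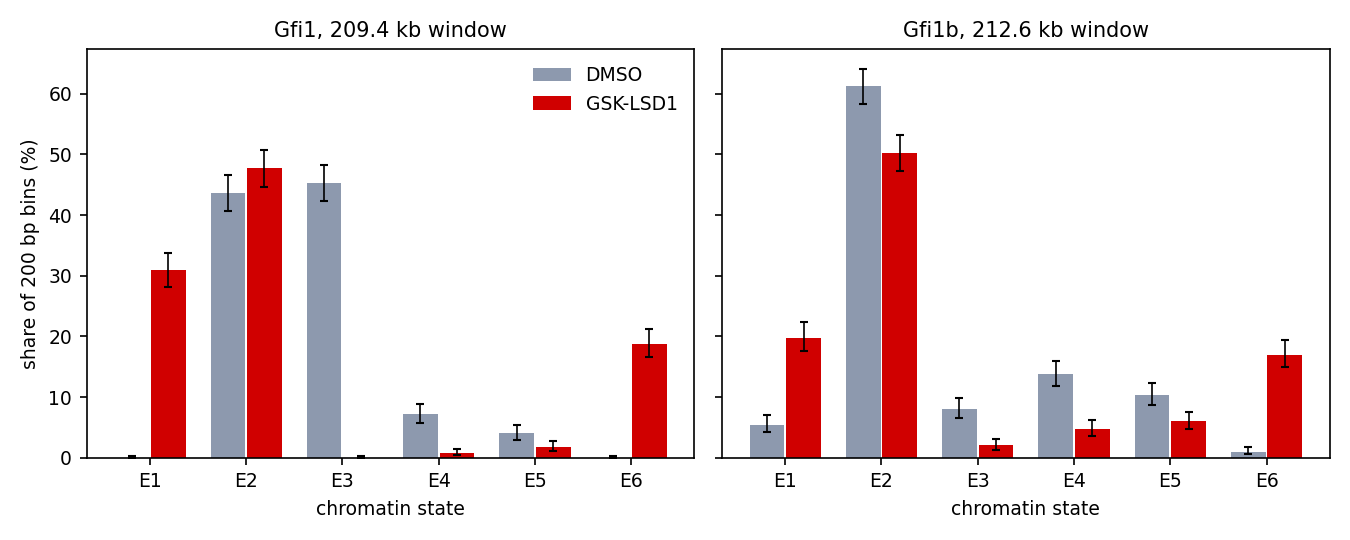
Share of 200 bp bins (%) in each of the 6 states in the Gfi1 and Gfi1b windows, with grey bars for DMSO, red bars for GSK-LSD1 and error bars for 95% Wilson intervals, which cover counting of bins only. E3 fills 45.3% of the Gfi1 window in DMSO and 0% in GSK-LSD1, and E6 fills 0% and 18.8% there and 1.03% and 17.0% around Gfi1b.

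The background state E3 covered 94.8 kb of the Gfi1 window in DMSO (45.3%), in a 34.2 kb block from 38.8 to 73 kb downstream of the start and a block that began 39.6 kb upstream and ran past the window's edge. In GSK-LSD1 no bin of the window was E3. Of 14228 protein-coding genes with at least 50 kb of E3 within 100 kb in DMSO, 537 (3.77%) had none left in GSK-LSD1. That limit of 50 kb was set after the values were seen. The Gfi1b window had 17.2 kb of E3 in DMSO, under the limit, and 4.4 kb in GSK-LSD1, and its single complete block, 15 kb just upstream of the start, held none in GSK-LSD1.

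Most of the former E3 at Gfi1 was E2 in GSK-LSD1, 67.8 kb or 71.5%. A further 20 kb (21.1%) was E1 and 6.8 kb (7.17%, interval 5.18 to 9.86) was E6. Over the genome 8.30% of E3 became E2, 0.253% became E1 and 0.00949% became E6. The passage from background to E6 was rare enough that 183.2 kb in the whole genome showed it, and the Gfi1 window held 3.71% of that length. Any such passage within 100 kb was found at 795 genes (3.68%). Gfi1 and its upstream neighbour Evi5, whose window takes in the same bins, had 6.8 kb each, and no other protein-coding gene had as much. Gfi1b had 0.8 kb, in 1 run 1.2 kb upstream of its start, and 190 genes had at least that.

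Of the 327 runs of bins that were E3 in DMSO and E6 in GSK-LSD1 in the genome, 5 lay in the Gfi1 window. The longest of them, 3 kb at chr5:107776001-107779000, was centred 51.7 kb upstream of the Gfi1 start, and 1 run elsewhere in the genome was longer (3.6 kb, on chromosome 19 near Mamdc2). A 1.8 kb run lay 47.1 kb upstream (chr5:107772001-107773800), and 12 runs in the genome, itself included, were as long. The other 3 runs measured 0.8, 0.8 and 0.4 kb. These conversions were looked at after the maps had been seen.

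The broad state E2 also gave way at Gfi1. Of the 91.2 kb that was E2 in DMSO, 45.4% was E1 in GSK-LSD1, 18.2% was E6 and 35.1% stayed E2. Over the genome these shares were 17.0%, 0.806% and 60.9%. At Gfi1b 19.5% of E2 became E1, 1.38% became E6 and 74.5% stayed E2. E5 or E6 that arose from E2 or E3 came to 23.6 kb at Gfi1, an amount reached by 3 protein-coding genes: Maml3, a Notch co-activator, with 28 kb, Evi5 with 27.4 kb, and Gfi1 itself. At Gfi1b it came to 2.6 kb, reached by 4395 genes (20.3%), where the median was 0.8 kb.

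The E5 or E6 area of GSK-LSD1 thus had different origins at the 2 genes. At Gfi1 38.9% of it had been E2 in DMSO, 15.7% E3, 25.9% E4 and 19.4% E5. At Gfi1b 44.5% had been E5, 32.7% E4, 13.1% E1, 4.49% E6, 3.67% E2 and 1.63% E3, which lay nearer to the genome as a whole (52.4% E5, 29.6% E4, 7.52% E2, 5.86% E6, 3.66% E1 and 0.911% E3). Little was lost at either gene: 100% of the DMSO E5 or E6 bins at Gfi1 and 99.2% at Gfi1b were still E5 or E6, against 95.9% over the genome. Only 16.3% of bins in the Gfi1 window kept their state number, against 56.4% at Gfi1b and 81.8% over the genome. The genome share is mostly background: E3 was 73.3% of it in DMSO, and 91.0% of that stayed E3. In DMSO E3 was 45.3% of the Gfi1 window and 8.09% of the Gfi1b window, so the shares are not like for like.

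**Figure D3:**
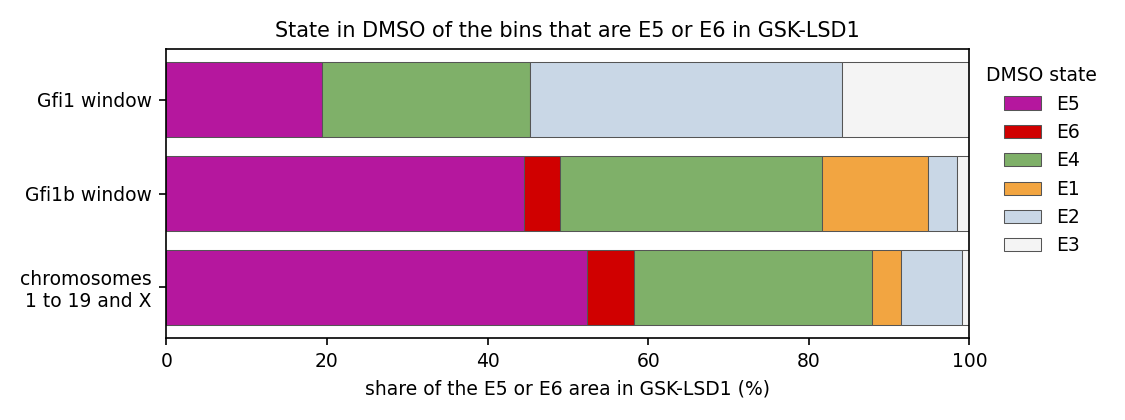
State in DMSO of the bins that are E5 or E6 in GSK-LSD1, as a share (%) of that area, for the Gfi1 window, the Gfi1b window and chromosomes 1 to 19 and X. The E2 and E3 segments together make up more than the E4 and E5 segments at Gfi1, and a small share at Gfi1b and over the genome.

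The upstream side of Gfi1 is known for its blood enhancers and held most of the added area. In the 100 kb upstream E5 or E6 covered 2.4 kb in DMSO against 23 kb in GSK-LSD1, 9.58-fold more, and in the 100 kb downstream of the gene 2.8 and 11.4 kb. At Gfi1b the balance was the other way, with 7.6 and 11.8 kb upstream (1.55-fold) and 11.6 and 25.2 kb downstream (2.17-fold). E1 lay on the same sides: in GSK-LSD1 37.8 kb upstream and 26.8 kb downstream of Gfi1, and 7 kb upstream and 34.6 kb downstream of Gfi1b, where DMSO had 8 kb downstream.

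Separate E5 or E6 regions in the Gfi1 window numbered 4 in DMSO and 14 in GSK-LSD1, and their median length was 1.60 kb and then 3.10 kb. Counted as distal when no annotated gene end lay within 2.5 kb, they numbered 2 and 8, a difference of 6 that 420 genes (1.94%) reached. At least 3 more distal regions were found at 2650 genes (12.3%). The Gfi1b window had 11 and 14 regions, with 4 and 6 distal, and did not reach that limit. With segments of 1 or 2 bins merged the differences were 5 at Gfi1, reached by 270 genes (1.25%), and 1 at Gfi1b.

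Both distal regions of Gfi1 in DMSO were also present in GSK-LSD1. The upstream one, 1.4 kb of E5 centred 23.9 kb before the start (chr5:107749001-107750400), lay inside 3.8 kb of E6 in GSK-LSD1 (chr5:107748401-107752200). The downstream one, 1.8 kb of E5 centred 37.9 kb after the start (chr5:107687001-107688800), was still E5, within a 3.2 kb region that had E6 at its edge. It was the only one of the 4 DMSO regions that stayed E5.

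Of the 8 distal regions in GSK-LSD1, 6 overlapped no E5 or E6 region in DMSO, and all 6 were upstream of Gfi1 and were E6, 13.2 kb in all. The nearest to the gene and the longest, 5 kb centred 30.9 kb upstream (chr5:107754201-107759200), had been E2. Next came 0.6 kb at 34.1 kb, also from E2 (chr5:107759601-107760200), and 2 kb at 39 kb (chr5:107763801-107765800), which spanned E2, a piece of E4 and the edge of E3. The 3 farthest, 0.8 kb at 42.6 kb (chr5:107768001-107768800), 1.8 kb at 47.1 kb and 3 kb at 51.7 kb, had been E3 throughout. All 6 lie inside Evi5, towards its 3′ end. Transcript levels were not analysed here, and which gene such a region acts on was not tested.

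By distance, E5 or E6 upstream of Gfi1 in steps of 10 kb covered 1 kb in DMSO against 5 kb in GSK-LSD1 nearest the start, and none in either map in the next step, all of which was E1 in GSK-LSD1. From 20 to 30 kb it covered 1.4 and 6.6 kb, and in the next 3 steps, out to 60 kb, it covered none in DMSO but 5.8, 2.6 and 3 kb in GSK-LSD1. Beyond 60 kb there was none in either map. The added area at Gfi1 therefore had an edge on both sides, 60 kb upstream and 40 kb downstream.

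At Gfi1b the largest step differences were within 10 kb downstream of the start (5 and 10 kb) and from 20 to 30 kb downstream (2.6 and 7.6 kb). In the second of these, DMSO regions of 1.6 kb (chr2:28597401-28599000) and 1.2 kb (chr2:28601001-28602200), centred 23.8 and 20.4 kb after the start, were merged in GSK-LSD1 into 1 E6 region of 8.2 kb (chr2:28594401-28602600). A 1 kb E6 region at 30.5 kb (chr2:28591001-28592000) had been E4, and 1.8 kb over the 3′ end of the gene (chr2:28609401-28611200) had been E1. The region closest upstream, 0.8 kb of E5 at 16.8 kb, was 0.8 kb of E5 in both maps with its edges shifted by 1 bin. Of the 14 regions in GSK-LSD1, 5 had no counterpart in DMSO and 4 of those were distal, 3.4 kb in all. All 4 were downstream of the start, 3 of them more than 80 kb away within Ralgds. Of these 3, the region at chr2:28535001-28535400 lay within 2.5 kb of an inner annotated start of Ralgds.

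**Figure D4:**
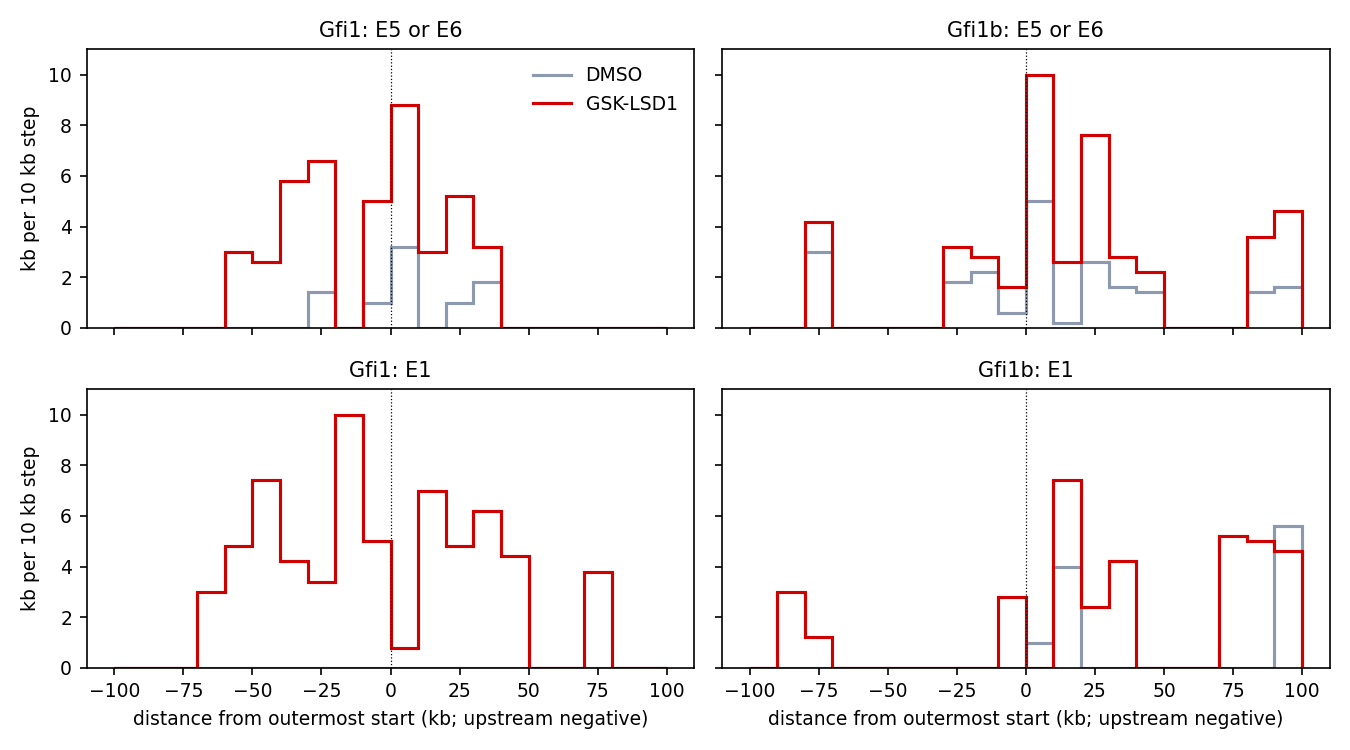
Area (kb per 10 kb step) of E5 or E6 (top) and E1 (bottom) against distance in kb from the outermost start of Gfi1 (left) and Gfi1b (right), grey for DMSO and red for GSK-LSD1, upstream negative. Around Gfi1 the red line is above the grey from 60 kb upstream to 40 kb downstream for E5 or E6, except for the step from 10 to 20 kb upstream, which holds 10 kb of E1; at Gfi1b the 2 largest differences are within 30 kb downstream.

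The regions at Gfi1 were joined by E1 into 1 unbroken stretch. In DMSO the run of E1, E4, E5 and E6 over the gene was 8.2 kb (chr5:107721001-107729200), and in GSK-LSD1 it was 101 kb (chr5:107681601-107782600), from 56.8 kb upstream to 44.2 kb downstream of the start. It was made of 56.8 kb of E1, 39.4 kb of E6, 3.8 kb of E5 and 1 kb of E4. The same 101 kb had been 55.8 kb of E2, 22.6 kb of E3, 14.2 kb of E4 and 8.4 kb of E5 in DMSO, where these states formed 8 separate runs.

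At Gfi1b the stretch over the gene was 8.8 kb in DMSO (chr2:28614001-28622800) against 39.6 kb in GSK-LSD1 (chr2:28586801-28626400), from 4.4 kb upstream to 35.2 kb downstream. It held 16.8 kb of E1 and 22.8 kb of E6. Over all genes the median stretch was 4.4 kb in DMSO against 7.2 kb in GSK-LSD1, and the 95th percentile 18.2 and 45.4 kb. A stretch at least as long as that of Gfi1 covered 156 genes (0.721%), in 68 separate stretches since neighbours can share 1, and a stretch at least as long as that of Gfi1b covered 1419 genes (6.56%). With E1 left out the stretch over Gfi1 in GSK-LSD1 was 13.2 kb, which 14.3% of genes reached, and that over Gfi1b 11.8 kb (18.2%), so their length rested on E1. Stretch length was measured after the maps had been seen, and each of these limits is set by the gene itself.

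**Figure D5:**
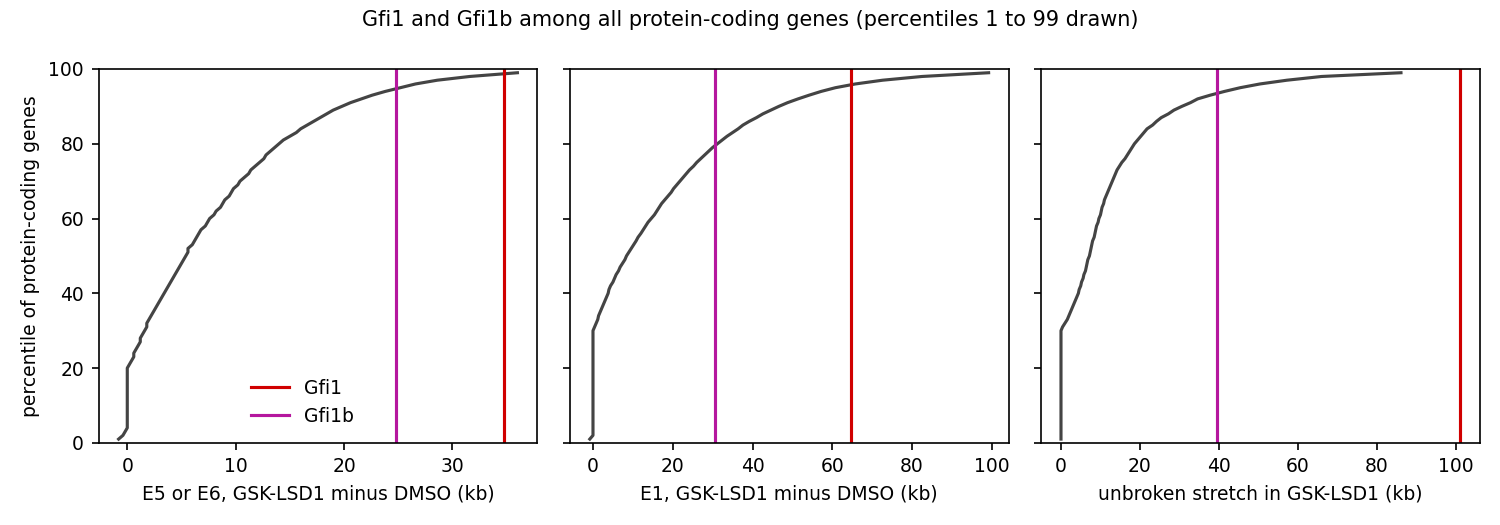
Percentile of protein-coding genes (vertical axis, %) against the difference in E5 or E6 area, the difference in E1 area and the length of the unbroken stretch over the gene in GSK-LSD1 (kb), grey line for all 21631 genes from the 1st to the 99th percentile, red line for Gfi1 and purple line for Gfi1b. Gfi1 lies at 34.8, 64.8 and 101 kb and Gfi1b at 24.8, 30.6 and 39.6 kb; the Gfi1 stretch lies past the end of the line drawn.

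The genes around Gfi1 took part unequally. Evi5, a regulator of Rab GTPases and the cell cycle first known as a viral integration site, lies 19 kb upstream of Gfi1 and is read on the same strand, so its 3′ end faces the Gfi1 start. Over its body E5 or E6 covered 3.6 kb in DMSO against 21 kb in GSK-LSD1, E1 0 and 27.8 kb, and E3 69.8 and 0 kb. Its own annotated start (107869048), outside the Gfi1 window, was E5 in both maps. Every E5 or E6 region found more than 19 kb upstream of Gfi1 in its window lies within Evi5.

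On the other side Rpap2, which encodes a phosphatase of RNA polymerase II, lies 54.8 kb away. Its 3 annotated starts were E5 in both maps, and E5 or E6 over its body covered 1.4 and 1.8 kb. The non-coding genes between were 4930428O21Rik, 13.2 kb downstream, with 1 and 3.8 kb of E5 or E6, and Gm42147, 11.8 kb upstream, which had none in either map and 0 and 3.8 kb of E1. A930041C12Rik, inside the Rpap2 locus, was E2 throughout in both maps.

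Around Gfi1b the starts of Tsc1, a brake on mTOR signalling that lies 19 kb upstream, and of Spaca9 and Ak8 farther up were E5 in DMSO and E6 in GSK-LSD1, as at Gfi1b itself. E5 or E6 covered 3 and 4.4 kb over Tsc1, 1.4 and 2 kb over Spaca9, and 4.8 and 3.8 kb over Ak8, the only one of the 3 with less in GSK-LSD1. Ak8 runs past the edge of the Gfi1b window, and its values are for its whole body. E3 there covered 45.6 kb in DMSO against 80.2 kb in GSK-LSD1. Inside the Gfi1b window E3 was lower in GSK-LSD1, at 17.2 and then 4.4 kb. Downstream, Gtf3c5, a subunit of the RNA polymerase III factor TFIIIC, kept its start in E5 and had 2.8 and 3.6 kb, and Cel, a pancreatic lipase gene, was E2 throughout in both maps. Ralgds, a Ral GTPase exchange factor 56.4 kb downstream, had 4.6 and 10.8 kb of E5 or E6 and 6.6 and 21.2 kb of E1, with its starts in E5 in both maps. The non-coding Gm52548 overlaps the Gfi1b start on the opposite strand, so its 2.8 kb of E5, E6 in GSK-LSD1, cannot be told apart from that of Gfi1b. The snRNA gene Gm22675, 14.2 kb downstream, lay in E4 and then in E6.

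Within 20 kb of the gene ends, where neighbours weigh less, Gfi1 had 5.2 kb of E5 or E6 in DMSO against 22 kb in GSK-LSD1, and Gfi1b 10.6 and 25.6 kb. The differences, 16.8 and 15 kb, were reached by 203 (0.938%) and 288 (1.33%) genes. At this scale the 2 genes were alike in their E5 or E6 difference, and at 100 kb they were not. Their E1 differences within 20 kb were unlike, at 27 kb for Gfi1 (4.96% of genes at or above) and 9.2 kb for Gfi1b (20.2%).

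The partners and relatives of the 2 proteins were measured in the same 20 kb windows, in which longer genes have more room. Over all protein-coding genes E5 or E6 was higher in GSK-LSD1 at 14440 (66.8%), lower at 959 and equal at 6232, with a median difference of 1.40 kb. Among 14 genes of the LSD1-CoREST complex and its partners it was higher at 14, with a median of 2.90 kb. Gse1, a CoREST-associated protein gene, had 60 and 94.2 kb, the DNA-binding subunit gene Hmg20b 9.2 and 19.6 kb, and the deacetylase gene Hdac1 7 and 15.4 kb. Zmym2, with 3.4 and 4.6 kb, and Hdac2, with 3 and 4.2 kb, tied for the smallest difference. Kdm1a, the gene of the inhibitor's target, had 2.8 and 4.8 kb, with 1.2 and 22.8 kb of E1; it was named after its values were seen.

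Of 9 other SNAG-domain repressor genes 6 were higher, 1 lower and 2 equal, with a median difference of 1.60 kb, close to that of all genes. Snai3 had 19.4 and 26 kb, Ovol2 6 and 12.2 kb and Scrt1 21.2 and 23.6 kb. Insm1, a neuroendocrine factor, was the lower one at 2.2 and 1.4 kb. None of the 9 reached the difference of Gfi1 or Gfi1b.

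All 12 genes listed as bound or repressed by GFI1 or GFI1B were higher, with a median of 3.70 kb. Spi1, which encodes the myeloid factor PU.1, had 10.4 and 22.8 kb, the granulocyte factor gene Cebpe 6.2 and 17.8 kb, and the cell cycle inhibitor gene Cdkn1a 19.2 and 28.2 kb. The 12 factors known to bind regulatory elements of Gfi1 or Gfi1b were also higher in every case, with a median of 6.10 kb: Runx1 had 50 and 88 kb, Fli1 31.4 and 62.2 kb and Gata2, with the smallest difference, 17 and 18 kb. Spi1 and Cebpe stand in both lists. Every gene of these lists already had E5 or E6 in its window in DMSO. The 66.8% of all genes that were higher was not limited to such genes, so the shares are not like for like. These counts describe the maps and were not tested against other lists.

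By the sum of absolute differences over 12 areas (6 states in 2 maps, 20 kb windows), the gene most like Gfi1 was Rab19, a Rab GTPase gene on chromosome 6, at 10 kb, where the median gene was at 160 kb. It had 6.8 kb of E5 and 0.8 kb of E6 in DMSO, and 19.8 kb of E6 and 28.2 kb of E1 in GSK-LSD1, against 5.2 kb of E5, 20.6 kb of E6 and 27 kb of E1 at Gfi1. 1700123O20Rik (19.2 kb), Gm32234 (19.2 kb), Soat2 (20.4 kb) and Mrpl33 (20.8 kb) followed. The nearest to Gfi1b were Dclre1b (27.6 kb), Klf16 (38.4 kb), Bcl10 (39.2 kb), B4galnt4 (39.6 kb) and S1pr3 (39.6 kb), with a median gene at 156 kb. The measure reads areas and not their order along the chromosome.

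The labelled cell type was checked by E5 or E6 within 1 kb of an end of marker genes. Of 8 granulocyte and myeloid genes 4 had it in DMSO and 8 in GSK-LSD1, with Itgam, Mpo, Elane and Csf3r among those with it only in GSK-LSD1. Of the B and T cell genes, Cd79a and Cd4 had it in both maps, and Pax5, Cd3e and Cd8a had it in neither. The erythroid genes Klf1 and Epor had it in both maps and Hbb-bt in neither. Mast cell and basophil genes had it at 1 of 3 in DMSO and at 3 of 3 in GSK-LSD1, and stromal and endothelial genes at 2 and then 1 of 3. The myeloid and the mast cell and basophil counts were higher in GSK-LSD1. Counts for B and T cell genes (2 and 2 of 6) and erythroid genes (3 and 3 of 4) were equal. The stromal and endothelial count was lower. How many of all protein-coding genes had E5 or E6 this near an end was not counted, so these counts have no background. By the area within 20 kb, E5 or E6 was higher in GSK-LSD1 at 66.8% of all protein-coding genes. What part the make-up of the cultures had in the differences was not tested.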

How the data were processed

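ChIP-seq for H3K4me1, H3K4me3 and H3K27Ac was done with a commercial kit, per the labels' protocols. Per the submitters' processing notes, Bowtie was used with mm10 (GRCm38). For each treatment the authors deposited 1 segmentation that joins its 3 marks, with a state label, E1 to E6, for each segment. The segmentation method, its thresholds, the use of the input and the marks behind a state were not given in the sources used here. Depth is unknown. A library with more reads or cleaner precipitation can pass a threshold in more bins.

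Segments (136061 in DMSO, 162731 in GSK-LSD1) were expanded to 200 bp bins and measured over RefSeq genes (GRCm38.p6) in Python 3.11.15 with numpy 2.4.6. Areas, conversions and stretches were counted, with 95% Wilson intervals. The area count was tested on simulated data (300 of 300 genes recovered). Members and lists were chosen with earlier results of these data known. Named were both genes, their neighbours, the 3 largest and the 1 smallest difference of each list, and the 5 nearest genes by area. Some list and marker genes are not reported here. Conversions, stretches and E3 loss were added after the maps were seen. Window size, the states counted together, short segments and run edges were varied.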

Additional observations from a re-analysis of the deposited data

How the results depend on the processing

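Differences are GSK-LSD1 minus DMSO in percentage points of window bins. They were 16.6 for E5 or E6 at Gfi1 and 11.7 at Gfi1b, 30.9 and 14.4 for E1, and 41.2 and 17.0 for E1, E4, E5 and E6 together. Over 36 alternative areas, 34 were higher in GSK-LSD1. The exceptions were E5 counted alone, at -2.20 for Gfi1 and -4.33 for Gfi1b; E6 alone gave 16.0 at Gfi1b. With 50 kb beyond each end the differences were 29.1 and 15.5 for E5 or E6, 48.6 and 10.5 for E1, and 65.6 for the 4 states at Gfi1. With 20 kb they were 34.0 and 28.5, 54.7 and 17.5, and 69.2 and 27. Bins nearest to the gene itself gave 36.4 and 32.6 for E5 or E6, 50.2 for E1 at Gfi1, and 70.6 and 32.0 for the 4 states. Taking 1 bin off both ends of each GSK-LSD1 run gave 27.9 for E1 at Gfi1. With E2 counted too, the 4 states became 45.3 and 6.02.

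Genes with a doubled E5 or E6 area numbered 2466, and 395 with E5 alone. Genes with 20 kb more E1 numbered 7037, then 3755 within 50 kb and 1727 within 20 kb, since a smaller window holds less. Genes with 3 more distal regions numbered 2650, then 1296 and 581, and 1520 with segments of 1 or 2 bins merged. No paired analysis was possible because each treatment had 1 map. With such segments merged, E3 to E6 at Gfi1 stayed at 6.8 kb and the stretch at 101 kb; these and the stretch without E1 were added after the data were seen. Depth is unknown, and the variation between cultures of 1 treatment was not measured.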
